A study of Mus musculus with 28 samples.

Results

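The translation initiation and elongation factors are the proteins that place the ribosome on an mRNA, find the start codon and move the ribosome along the reading frame. Their own levels were read here from ribosome footprints and from total mRNA in mouse MN1 cells and in mouse cortical neurons. The members were every protein-coding gene whose symbol begins with Eif and a digit from 1 to 6, or with Eef. This rule gave 68 genes of the 21578 protein-coding genes and 45513 genes in the count tables, and used no measured value. The 68 fall by known role into 8 genes of start site selection and subunit joining, 11 of eIF2, its exchange factor eIF2B and related factors, 4 eIF2 kinases, 14 of eIF3, 12 of eIF4F and its helpers, 4 inhibitors and partners of the cap-binding protein eIF4E, 2 of eIF5A, 8 elongation factors and 5 kinases and methyltransferases of elongation factors.

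The small ribosomal subunit carries eIF1, eIF1A, eIF3, eIF5 and the initiator tRNA bound to eIF2, and is brought to the capped mRNA end by eIF4F, in which eIF4E binds the cap, eIF4G is the scaffold and eIF4A unwinds RNA. Phosphorylation of eIF2 by its kinases and binding of eIF4E by the 4E-BPs (Eif4ebp genes) lower initiation, and in neurons both are known for their part in plasticity. During elongation eEF1A delivers aminoacyl-tRNA, eEF1B recharges eEF1A with GTP, eEF2 moves the ribosome and eIF5A helps peptide bond formation.

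The study asked how human TDP-43, an RNA-binding protein, and its disease-linked form A315T alter translation, and sequenced a footprint library and a total mRNA library from each of 14 cultures (28 libraries). MN1 cells, a clonal hybrid of mouse spinal motor neurons and neuroblastoma cells, were transiently transfected with GFP, with tagged hTDP-43 or with tagged hTDP-43 A315T (2 cultures each) and received 100 µg/mL cycloheximide, which stalls ribosomes, for 3 min before lysis. Neurons came from E16 cortices of mice carrying a human TARDBP transgene under the prion protein promoter, as the normal sequence (hTDP-43, 3 cultures) or A315T (3 cultures), or of littermates without it (WT, 2 cultures). All neuron cultures received 0.5 µM AraC on day 4 in vitro against dividing cells, were taken on DIV14 and had no cycloheximide before lysis. Culture, cycloheximide treatment and the dates of the cultures all differ between MN1 cells and neurons, so that their parts in a difference between these cells cannot be told apart.

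Libraries held 332370 to 1219222 counted reads for MN1 footprints, 1328528 to 2988339 for MN1 total mRNA, 166064 to 2528820 for neuron footprints and 600385 to 6969578 for neuron total mRNA. Counts of Tardbp checked the GFP labels: in MN1 total mRNA they ranged from 218 to 239 CPM (reads of the gene scaled to a common library size) with GFP and from 339.6 to 413 CPM with either TDP-43 form, so GFP did not overlap with the TDP-43 forms. The hTDP-43 cultures (405 and 339.6 CPM) and the A315T cultures (413 and 372 CPM) overlapped. Their labels were therefore not checked against each other. In both cell types the added TDP-43 sequence was human and reads were placed on the mouse genome. Neuron total mRNA held 66.1 to 115 CPM in WT and 60.7 to 90.3 CPM with the transgenes. Neuron footprints held 109 CPM in both WT cultures and 68.6 to 103 CPM with the transgenes. The neuron labels could therefore not be checked by a gain of Tardbp reads. All 11 cortical neuron markers had a median above 1 CPM in the neurons, where astrocyte markers (5 of 5 above 1 CPM) summed to 67.6 to 168 CPM in footprints against 8204 to 10108 CPM for the neuron markers. In neuron total mRNA the astrocyte markers summed to 41.4 to 105 CPM and those of the oligodendrocyte lineage (5 of 5 above 1 CPM) to 55.8 to 124 CPM. In MN1 cells 6 of 7 motor neuron markers had a median above 1 CPM and summed to only 52.8 to 79.1 CPM in footprints. A level of 3 reads was a median of 4.14 CPM in MN1 footprints, and only Isl1 (median 37.4 CPM) and Slc18a3 (20.5) lay above it. In neuron footprints 3 reads were a median of 4.04 CPM, and 5 of 7 motor neuron markers had a median above 1 CPM. In MN1 footprints 4 markers of sympathetic neuroblastoma summed to 475 to 601 CPM, of which Hand2 held 417 to 532. There 4 markers of cycling cells summed to 627 to 1002 CPM. Of the 11 cortical neuron markers 6 had a median above 1 CPM in MN1 footprints, where the list summed to 568 to 713 CPM, of which Tubb3 held 425 to 568. The cycling markers summed to 1.94 to 6.86 CPM in neuron footprints. The part of these other cells' markers in the results was not tested. In the total mRNA of 2 neuron cultures, WT 3 and hTDP-43 3, the gene Lars2 took 18.8% and 14.1% of the reads, against 3.09% to 7.49% in the other neuron cultures, and the counts of members called between cell types and between libraries are given with and without these cultures, while levels and ratios of levels are given with them.

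Of the factors 9 are on a list of mRNAs with a terminal oligopyrimidine tract (TOP), the 5′ stretch of C and T through which growth signalling controls the translation of the protein synthesis machinery. RefSeq start sites (GRCm38.p6) were matched for 52 of the 68 members and for 5 of the 9 on the TOP list. They are shown because all 9 TOP members were lower in neurons than in MN1 cells, beside 39.2% of all genes in footprints and 39.6% in total mRNA. Most members not on the list were lower as well. The lines hold 10 bases before the annotated start and 20 from it, 5′ to 3′, with the longest unbroken run of C and T in capitals, for the 5 TOP members and for Eef1a2, Eif4a1 and Eif4a2, on which the paralogue results turn.
Eef1a1, chr9:78481705-78481734, minus strand: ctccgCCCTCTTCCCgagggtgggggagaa
Eef1b2, chr1:63176821-63176850, plus strand: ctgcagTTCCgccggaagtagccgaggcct
Eef2, chr10:81176621-81176650, plus strand: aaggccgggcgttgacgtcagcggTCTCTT
Eif3f, chr7:108934405-108934434, plus strand: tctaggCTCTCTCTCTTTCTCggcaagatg
Eif4b, chr15:102073763-102073792, plus strand: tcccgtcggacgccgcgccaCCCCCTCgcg
Eef1a2, chr2:181156996-181157025, minus strand: cctggtctgcgTTCTCgctcactggttctc
Eif4a1, chr11:69672404-69672433, minus strand: gtaacgTCacgtcgagttgcagagcgccgg
Eif4a2, chr16:23107458-23107487, plus strand: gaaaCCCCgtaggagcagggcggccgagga
The run was 15 bases long for Eif3f and 10 for Eef1a1, and spanned the annotated start in both. It was 4 bases for Eef1b2, 6 for Eef2 and 7 for Eif4b, 5 for Eef1a2, 2 for Eif4a1 and 4 for Eif4a2. The run of Eef2 reached the last printed base, so its full length is not seen. A run of at least 8 pyrimidines on the printed strand lay in the window of 10 of the 52 matched members (19.2%), against 13% of the 27025 genes with a RefSeq start. Of these 10 only Eif3f and Eef1a1 are on the TOP list. A run is a description of these letters, and annotated starts can lie off the true one.

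The share of all counted reads that fell on the 68 genes was 1.88% to 2.23% in the 6 MN1 footprint libraries and 2.01% to 2.05% in MN1 total mRNA. In neurons it was 0.926% to 1.09% of footprints and 0.51% to 0.931% of total mRNA, so no neuron library reached the lowest MN1 library. The lowest shares in neuron total mRNA, 0.51% and 0.577%, were those of WT 3 and hTDP-43 3, where Lars2 was high. The part of Lars2 in this was not tested.

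Levels between genes were compared as RPKM, which is CPM divided by the length of the exons in kilobases. The most abundant members in MN1 footprints were Eef1a1, with a median of 903 RPKM (704 to 1149.7 over 6 libraries), Eef2 with 671 (562 at the lowest), Eif5a with 610 (541 at the lowest), Eif3h with 438 and the eIF3 subunit gene Eif3k with 296. In neuron footprints Eef1a2 led with a median of 525 RPKM, followed by Eef1a1 with 503, Eef2 with 435, Eif3k with 210 and Eif5a with 182. The ranges of Eef1a1 and Eef1a2 in neuron footprints overlapped, since Eef1a2 ran from 397 RPKM upwards and Eef1a1 from 460. Their order is also uncertain because 40.9% of the exon windows of Eef1a1 and 99.9% of those of Eef1a2 occur once in the genome. In total mRNA the order was led by Eef2 in both cells, with medians of 798 RPKM in MN1 cells and 435 in neurons, and Eif4h, a helper of eIF4A, entered the highest 5 with 454 and 195 RPKM. At the other end of the members tested lay Eif5a2 (1.35 RPKM) and the initiator-tRNA-binding factor Eif2d (2.40) in MN1 footprints, and Eif3j1 (0.958), Eif4e3 (1.49) and Eif5a2 (2.15) in neuron footprints, all medians. Of the members that were not tested in these contrasts for low counts, Eif4e1b and Eif4ebp3 had no more than 5 reads in any library, and Eif3j2 had at most 6.

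Reads that fit more than 1 place can be lost in counting, so the share of a gene's 30-base exon windows that occur once in the genome was computed. It was 6.84% for Eif2s3x, 19.1% for Eif3j1, 40.9% for Eef1a1, 50.4% for Eif3e, 51.9% for Eef1g, 57.7% for Eif1, 59.1% for Eif3h, 61.4% for Eif5, 65.9% for Eif4a1 and 69.4% for Eef2, and the levels of these genes are uncertain. Eif3j1 and Eif3j2 shared 2010 windows, which were 85.5% of those of Eif3j2. No window was shared within the pairs Eef1a1 and Eef1a2, Eif4a1 and Eif4a2, Eif1 and Eif1b, Eif4g1 and Eif4g3, Eif5a and Eif5a2, or Eif4ebp1 and Eif4ebp2.

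Between the cell types, most factors were lower in neurons and a few, led in footprints by Eif4a2, Eif1b, Eef1a2 and Eif4g3, were higher. In footprints 43 of the 58 members tested were lower in neurons than in MN1 cells and 7 were higher (edgeR quasi-likelihood test, adjusted p under 0.05). Over all 9518 genes tested 39.2% were lower and 44.4% were higher. The median log2 fold change was -0.99 for the members and 0.12 for all genes. In total mRNA 45 of 63 members were lower and 10 were higher, against 39.6% and 43% of the 11818 genes tested, with a median of -0.98 for the members and 0.07 for all genes. Without WT 3 and hTDP-43 3, 42 members were lower and 7 higher in footprints, and 44 lower and 10 higher in total mRNA. The plot of both changes shows most members near the line of equal change, with Eif4a2 above it.

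**Figure D1:**
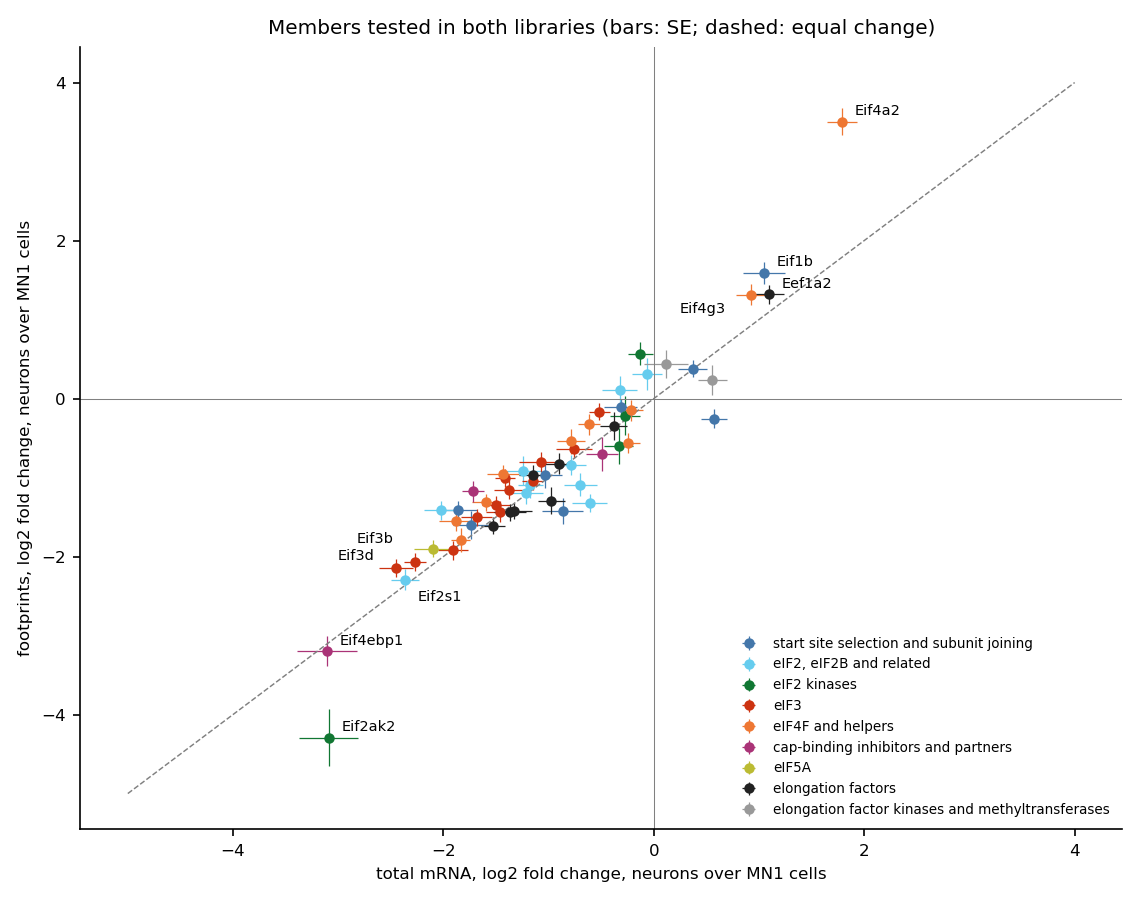
Log2 fold change of neurons over MN1 cells in footprints (vertical axis) against total mRNA (horizontal axis) for each member tested in both, coloured by role, with SE bars and a dashed line of equal change. Most members sit in the lower left, Eif4a2 lies at 1.79 in total mRNA and 3.51 in footprints, and Eif1b, Eef1a2 and Eif4g3 are the next highest in footprints.

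The eIF4A pair, the RNA helicase of the cap complex, showed the widest difference. Eif4a2 lies on chromosome 16 (23107444 to 23114136, plus strand, GRCm38) and Eif4a1 on chromosome 11 (69666936 to 69672423, minus strand). The GFP cultures of MN1 cells had 9.28 and 6.40 RPKM of Eif4a2 in footprints, the hTDP-43 cultures 8.41 and 3.13 and the A315T cultures 9.11 and 3.63. In neuron footprints it measured 84.2 and 87.6 RPKM in WT, 102, 91.2 and 84.8 with hTDP-43 and 97.3, 83.0 and 78.3 with A315T. Every neuron library therefore lay above every MN1 library. The log2 fold change was 3.51 (SE 0.17, adjusted p = 1.26e-15) in footprints and 1.79 (SE 0.15, adjusted p = 4.11e-09) in total mRNA. Eif4a1 fell in both, by 1.31 in footprints and by 1.60 in total mRNA on the log2 scale. The RPKM ratio of Eif4a2 to Eif4a1 in footprints had a median of 0.0634 in MN1 cells (0.0266 to 0.0785) and 1.64 in neurons (1.49 to 2.04).

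The elongation factor eEF1A showed a like pattern. Eef1a2, the form known from neurons and muscle, had 179 and 186 RPKM in the footprints of the GFP cultures of MN1 cells, 156 and 165 in the hTDP-43 cultures and 208 and 209 in the A315T cultures. In neuron footprints the values were 556 and 397 RPKM in WT, 564, 558 and 500.1 with hTDP-43 and 522, 529 and 519.9 with A315T, all above the MN1 libraries. The log2 fold change of Eef1a2 was 1.32 (SE 0.12, adjusted p = 1.75e-10) in footprints and 1.09 (SE 0.15, adjusted p = 2.24e-06) in total mRNA, while Eef1a1 fell by 0.97 and 1.15. The footprint ratio of Eef1a2 to Eef1a1 had a median of 0.212 in MN1 cells (0.156 to 0.281) and 1.02 in neurons (0.862 to 1.14), where the Eef1a1 level is uncertain for its share of unique windows.

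Eif1b, the paralogue of the start codon selection factor Eif1, had 35.6 to 53.3 RPKM in the footprints of MN1 cells (median 47) and 133 to 184 in those of neurons (median 151), with no overlap, and rose by a log2 fold change of 1.59 (SE 0.14, adjusted p = 9.2e-11) in footprints and 1.05 (SE 0.20, adjusted p = 0.000137) in total mRNA. In total mRNA the lowest neuron library, WT 3 with 43.9 RPKM, lay within the MN1 range of 40.1 to 46.9. The ratio of Eif1b to Eif1 in footprints had a median of 0.653 in MN1 cells and 1.94 in neurons. Eif4g3, a scaffold paralogue of Eif4g1, rose by 1.32 (SE 0.13, adjusted p = 8.94e-10) in footprints and 0.92 (SE 0.14, adjusted p = 1.37e-05) in total mRNA, but Eif4g1 stayed the more abundant of the pair, with a median Eif4g3 to Eif4g1 ratio of 0.364 in neuron footprints and 0.123 in MN1 footprints. Eif4g2, a relative that does not bind eIF4E, passed the test in neither library.

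Eif4e3, a variant cap-binding protein, had 0 reads in all 6 MN1 footprint libraries and at most 3 in MN1 total mRNA, and 7 to 73 reads in neuron total mRNA, where its log2 fold change of 3.97 (SE 0.45, adjusted p = 2.78e-07) rests on few MN1 reads. Its relative Eif4e fell by 0.54 in footprints and 0.79 in total mRNA. Eif5a2, the second eIF5A gene, rose in total mRNA by 0.63 (SE 0.21, adjusted p = 0.0118), while Eif5a fell by 2.10 in total mRNA and 1.90 in footprints. Eif5a2 remained far below its partner, with a median ratio of 0.0314 in neuron total mRNA and 0.00518 in MN1 total mRNA. The kinase gene Eef2k, whose product inhibits eEF2, rose by 0.56 in total mRNA, the haem-regulated eIF2 kinase gene Eif2ak1 by 0.57 in footprints, Eif5 by 0.38 in footprints and 0.37 in total mRNA, and the methyltransferase genes Eef1akmt1 by 0.44 in footprints and Eef1akmt2 by 1.21 in total mRNA. The call of Eef1akmt1 was lost under 8 of the alternatives tried.

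Of the eIF1A genes, Eif1a fell by 0.96 in footprints and 1.03 in total mRNA, while Eif1ax rose in total mRNA (0.57, SE 0.13, adjusted p = 0.000466) and stood at -0.26 in footprints, a call that was lost under 15 of the alternatives. The median RPKM ratio of Eif1a to Eif1ax in total mRNA was 1.27 in MN1 cells (1.10 to 1.42) and 0.473 in neurons (0.191 to 0.611), with no overlap. Eif1 itself passed the test in neither library. For the cap-binding pair the median ratio of Eif4e2 to Eif4e in total mRNA was 1.05 in MN1 cells (0.887 to 1.12) and 1.43 in neurons (1.05 to 2.71), which overlap.

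**Figure D2:**
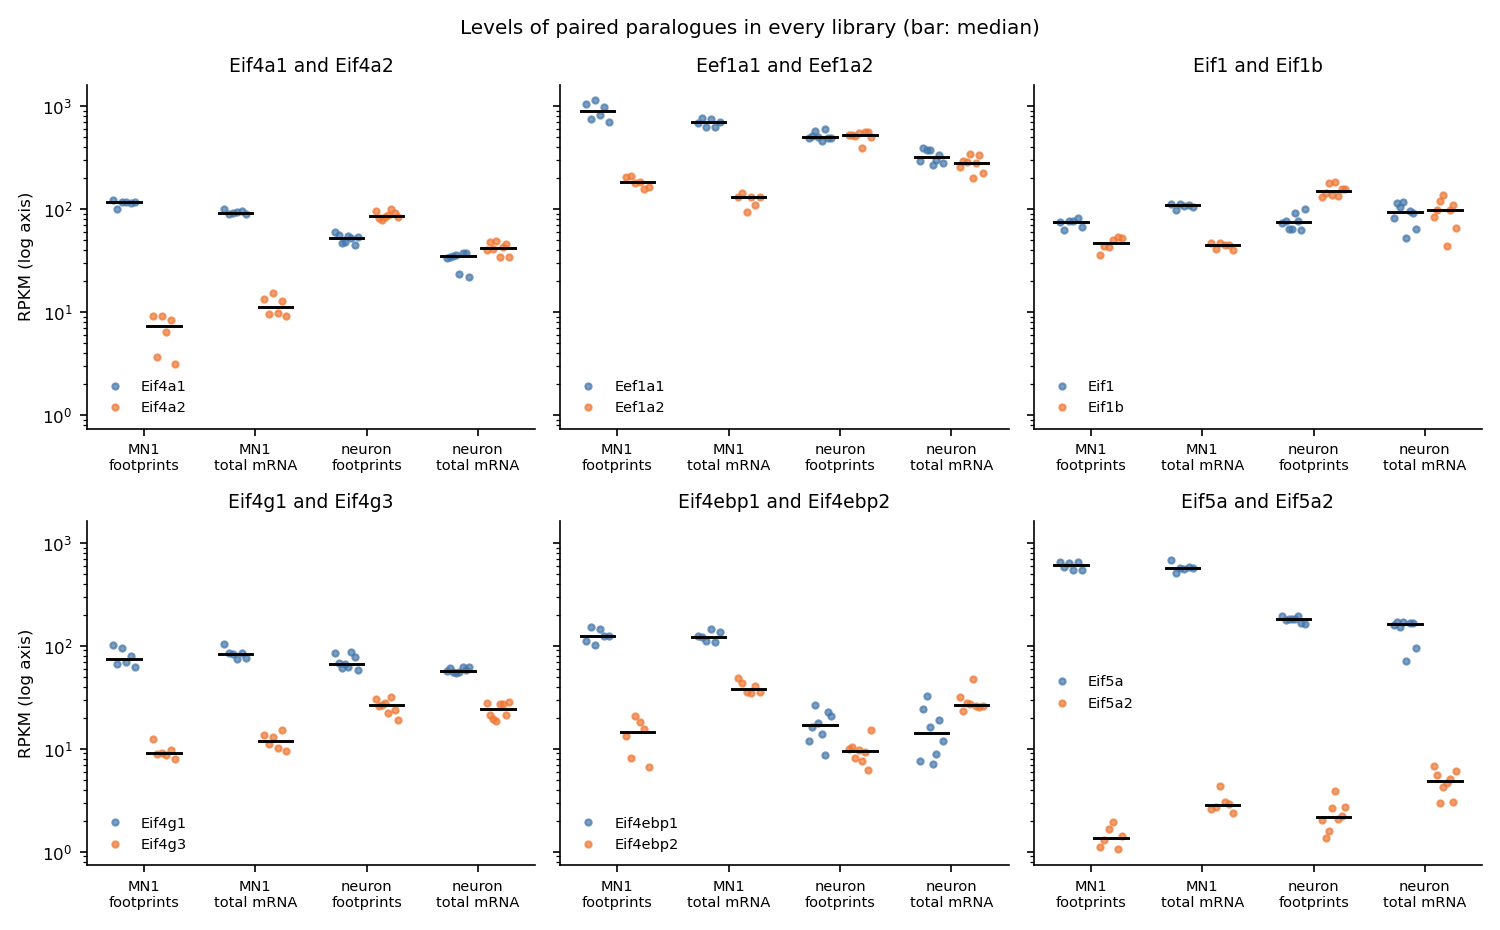
Level of 6 paralogue pairs in every library, as RPKM on a log axis, by cell type and library, with the median as a bar. The second gene of the Eif4a, Eef1a and Eif1 pairs reaches or passes the first in neuron footprints as counted (median ratios of 1.64, 1.02 and 1.94), although fewer windows are unique in the first gene (65.9% against 75.9%, 40.9% against 99.9% and 57.7% against 99.1%), whereas Eif4g3 and Eif5a2 stay below Eif4g1 and Eif5a.

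Among the inhibitors and partners of the cap-binding protein eIF4E, Eif4ebp1 was the higher 4E-BP in every MN1 library and Eif4ebp2 the higher by median in neuron total mRNA. Eif4ebp1 had 103 to 151 RPKM in the footprints of MN1 cells and 8.76 to 26.4 in those of neurons, and fell by 3.20 on the log2 scale in footprints (SE 0.19, adjusted p = 7.27e-14) and by 3.11 in total mRNA (SE 0.28, adjusted p = 1.72e-08). Eif4ebp2, the form known as the main 4E-BP of brain, fell by 0.70 in footprints and 0.50 in total mRNA. Its median ratio to Eif4ebp1 in total mRNA was 0.339 in MN1 cells (0.236 to 0.391) and 1.93 in neurons (0.862 to 6.63), while in footprints it was 0.123 and 0.589. Eif4enif1, the carrier of eIF4E into the nucleus, fell by 1.18 and 1.72.

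Of the 4 eIF2 kinases, Eif2ak2, which responds to double-stranded RNA, was the lowest in neurons. It had 8 to 36 reads in each MN1 footprint library and 0 to 3 in each neuron footprint library, with log2 fold changes of -4.29 (SE 0.36, adjusted p = 4.76e-11) in footprints and -3.09 (SE 0.28, adjusted p = 1.73e-08) in total mRNA. Neuron footprint counts of Eif2ak2 are at the level of 3 reads that a count of 0 allows, so its fitted change depends on the prior. Eif2ak4, the amino acid sensor, fell by 0.60 and 0.33, and Eif2ak3, the kinase of the endoplasmic reticulum, passed the test in neither library.

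In the eIF2 and eIF2B group 8 of 10 tested members fell in footprints and 8 of 10 in total mRNA, with no member that rose. Over all genes 39.2% fell in footprints and 39.6% in total mRNA. Eif2s1, the subunit that the kinases phosphorylate, had 54.6 to 78.2 RPKM in the footprints of MN1 cells and 10.9 to 24.96 in those of neurons and fell by 2.29 on the log2 scale (SE 0.13, adjusted p = 4.25e-14). Eif2s3y, the Y-linked copy of the gamma subunit, had at most 1 read in any MN1 library and 2 to 29 reads in each neuron footprint library, so it was not tested between the cells in footprints or total mRNA. Eif2s3x fell by 1.10 and 1.17, with the uncertainty named above.

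The eIF3 genes, whose products form the scaffold of the initiation complex, fell in 11 of 12 tested cases in footprints and in 12 of 13 in total mRNA, beside 39.2% and 39.6% of all genes. Eif3d fell by 2.14 (SE 0.12), Eif3b by 2.07 (SE 0.12) and Eif3e by 1.92 (SE 0.12) in footprints, with adjusted p of 1.11e-14, 2.05e-14 and 1.42e-13. Eif3b lay between 203 and 264 RPKM in the footprints of MN1 cells and between 45.1 and 72.1 in those of neurons. Eif3c was at the other end, with a footprint change of -0.17 that did not pass the test and a total mRNA change of -0.52 that did. The subunits therefore did not shift by one common amount. All 9 TOP members fell in both libraries, with a median log2 fold change of -1.44 in footprints and -1.46 in total mRNA, against -0.91 and -0.78 for the tested members not on the list.

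Of the 8 elongation factors, 6 fell and 1 rose in footprints, beside 39.2% and 44.4% of all genes. In total mRNA 7 fell and 1 rose, beside 39.6% and 43%. The eEF1B subunit genes Eef1d, Eef1g and Eef1b2 fell by 1.61, 1.44 and 1.42 in footprints, and Eef2 by 0.82. Outside these groups Eif4b, a helper of eIF4A on the TOP list, fell by 1.79 in footprints, and the eIF2B gene Eif2b2 by 2.03 in total mRNA. Eef2kmt, the methyltransferase of eEF2, had at most 3 reads in any neuron footprint library and fell by 3.25 in total mRNA (SE 0.24, adjusted p = 1.25e-09). In bulk cultures fewer cells of a type and less RNA per cell cannot be told apart, and CPM gives each gene's share of a library, not an amount per cell. Of 24 further genes of translation control that are no members, 16 fell and 7 rose in total mRNA, beside 39.6% and 43% of all genes. In footprints 13 fell and 5 rose (23 tested), beside 39.2% and 44.4% of all genes. Among them were the poly(A)-binding protein gene Pabpc1 with -1.72 and the TOP regulator Larp1 with -1.37 in footprints, and Pdcd4, an inhibitor of eIF4A, with 0.94.

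Counts of footprints against total mRNA from the same cultures compare how much of a gene's reads lie on ribosomes. The reported fit treated the libraries of a culture as independent, and a fit with a block for culture, which pairs them, was an alternative. In MN1 cells 31 of 61 members were higher in footprints and 12 were lower, against 29.6% and 31.7% of the 9421 genes tested. In neurons 30 of 62 were higher and 10 lower, against 27.6% and 31.8% of the 10337 genes tested. The median log2 fold change was 0.31 and 0.26 for the members and -0.04 and -0.05 for all genes. Without WT 3 and hTDP-43 3, 28 members were higher and 13 lower in neurons. The highest medians by role were those of eIF3 and, in MN1 cells, the elongation factors.

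**Figure D3:**
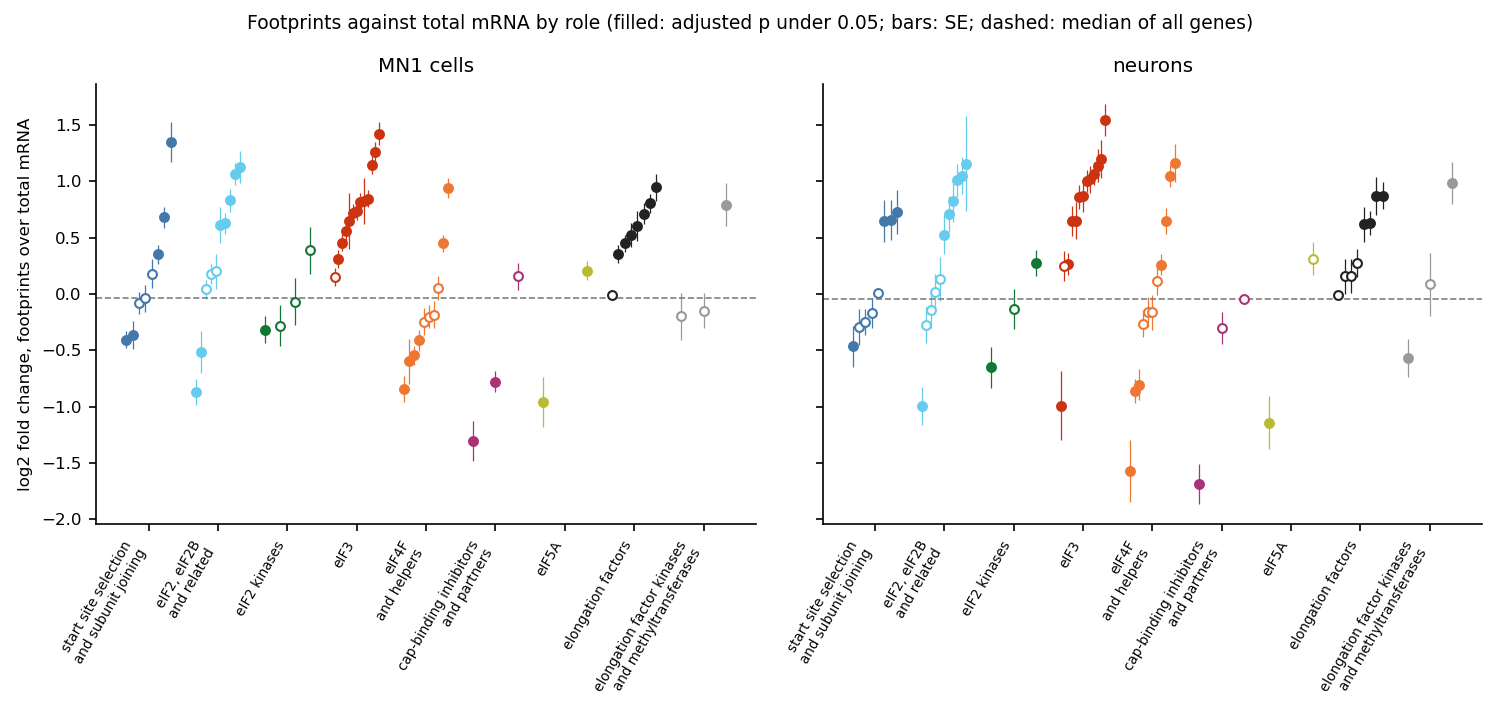
Log2 fold change of footprints over total mRNA for each member tested, by role, in MN1 cells (left) and neurons (right), with SE bars, filled points for an adjusted p under 0.05 and a dashed line at the median of all genes. In MN1 cells all 13 eIF3 points lie above the dashed line, in neurons 12 of 13, with Eif3j1 below it.

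For eIF3, 12 of 13 tested genes were higher in footprints in MN1 cells and 11 of 13 in neurons, beside 29.6% and 27.6% of all genes. The eIF3 medians were 0.74 and 0.87. Eif3m led in both cells. Its log2 ratio of footprint to total mRNA CPM ran from 0.979 to 1.47 over the 6 MN1 cultures and from 1.20 to 1.91 over the 8 neuron cultures, and the fitted change was 1.42 (SE 0.10, adjusted p = 4.59e-09) and 1.54 (SE 0.14, adjusted p = 2.54e-08). Eif3k followed with 1.14 and 1.20, and Eif3e with 1.26 and 1.14. In MN1 cells Eif3b was the subunit that did not pass (0.16), although it did with a block for culture (0.15, SE 0.07, adjusted p = 0.0497). In neurons Eif3f did not pass (0.25) and Eif3j1 was lower (-0.99, SE 0.30, adjusted p = 0.00872). The 3 eIF3 genes on the TOP list had a median of 0.56 in MN1 cells and the others 0.78. The whole TOP list had 7 of 9 genes higher in MN1 cells and 4 of 9 in neurons, beside the same shares of all genes, with medians of 0.45 and 0.28.

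Of the elongation factors 7 of 8 were higher in footprints in MN1 cells and 4 of 8 in neurons, beside 29.6% and 27.6% of all genes. In neurons a block for culture added Eef1d (0.26, SE 0.10, adjusted p = 0.0336). Eef2 was at -0.01 in both cells. The multisynthetase partner gene Eef1e1 stood at 0.95 and 0.87, and Eef1a2 at 0.71 and 0.87. Among other roles the largest values were those of Eif5b (1.35 in MN1 cells), which joins the ribosomal subunits, of Eif2a (1.13 and 1.01), of Eif2s1 (1.07 and 1.05) and of Eif4a3, an RNA helicase of the exon junction complex (0.94 and 1.16). In neurons Eif2s3y (1.16, SE 0.42, adjusted p = 0.0231) and Eif3l (1.07) were among the highest 8.

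The lowest member in both cells was Eif4ebp2, with log2 ratios of -2.32 to -0.750 in MN1 cultures and -2.55 to -0.744 in neuron cultures and fitted changes of -1.30 (SE 0.18, adjusted p = 6.8e-06) and -1.69 (SE 0.17, adjusted p = 1.2e-07). Eif5a2 (-0.96 and -1.14), Eif2s3x (-0.87 and -0.99), Eif4g2 (-0.84 and -0.86) and Eif4e2 (-0.41 and -0.80) were also lower in both cells, and Eif4e3 was lower in neurons (-1.57, SE 0.28, adjusted p = 6.96e-05). Eif4e3 had at most 8 reads in any neuron footprint library, and Eif5a2 at most 10 in any MN1 footprint library. In MN1 cells Eif4enif1 (-0.78), Eif4h (-0.54) and Eif2d (-0.52) were lower as well, and in neurons Eif2ak4 (-0.65). The call of Eif2d was lost in 4 of the 6 fits that left out 1 MN1 culture. The genes of eIF4F and its helpers were split, with 2 higher (Eif4a1 and Eif4a3) and 4 lower of 10 tested in MN1 cells, beside 29.6% and 31.7% of all genes.

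Reads were counted over all exons, while footprints come mainly from the coding part. The coding share of a gene's exons was therefore set beside this ratio, and its part in the ratio was not tested. Across genes, Spearman's rho between the coding share and the log2 fold change was 0.13 over 9300 protein-coding genes in MN1 cells and 0.21 over 10232 in neurons, and 0.31 over 61 and 0.41 over 62 members, where genes share libraries and are no independent replicates. The coding share was 20.2% for Eif4ebp2, 9.13% for Eif5a2, 12.9% for Eif4e2 and 24.7% for Eif4e3, against 91.2% for Eif3k, 86.6% for Eif3e and 89.4% for Eif3l, although Eif3m had 43.3%, Eif3i 26.3% and Eif2s1 27.8%. Within genes whose exons are at least 50% coding, the median change was 0.08 over 3099 genes and 0.58 over 24 members in MN1 cells, and 0.15 over 3244 genes and 0.65 over 24 members in neurons, and 9 of 9 eIF3 genes lay above the median of all genes in both. Between 25% and 50%, the median was -0.06 over 4000 genes and 0.18 over 25 members in MN1 cells. In neurons it was -0.04 over 4434 genes and 0.28 over 25 members. Below 25% it was -0.17 over 2174 genes and -0.14 over 12 members in MN1 cells. In neurons the median below 25% was -0.29 over 2519 genes and -0.25 over 13 members. Of the eIF3 genes, 3 of 3 between 25% and 50% lay above the median of that range in both cells. Below 25% this held for 1 of 1 in MN1 cells and 0 of 1 in neurons.

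Whether the footprint-to-mRNA ratio differed between neurons and MN1 cells was tested with an interaction term over all 28 libraries. This fit, too, did not pair the libraries of a culture. Of 64 members 6 had a higher ratio in neurons and 3 a lower one, against 7.37% and 3.12% of the 11587 genes tested, and the median was 0.17 for the members and 0.16 for all genes. With RLE size factors in place of TMM the median of all genes moved to -0.03, the calls over all genes turned from 854 higher and 362 lower to 299 higher and 571 lower, and 2 members were higher and 3 lower. Without neuron hTDP-43 replicate 1 that median was -0.02, and 1 member was higher. The values given below are the fitted differences themselves, without the median of all genes taken off. A shift shared by all genes is therefore part of them and of their calls.

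**Figure D4:**
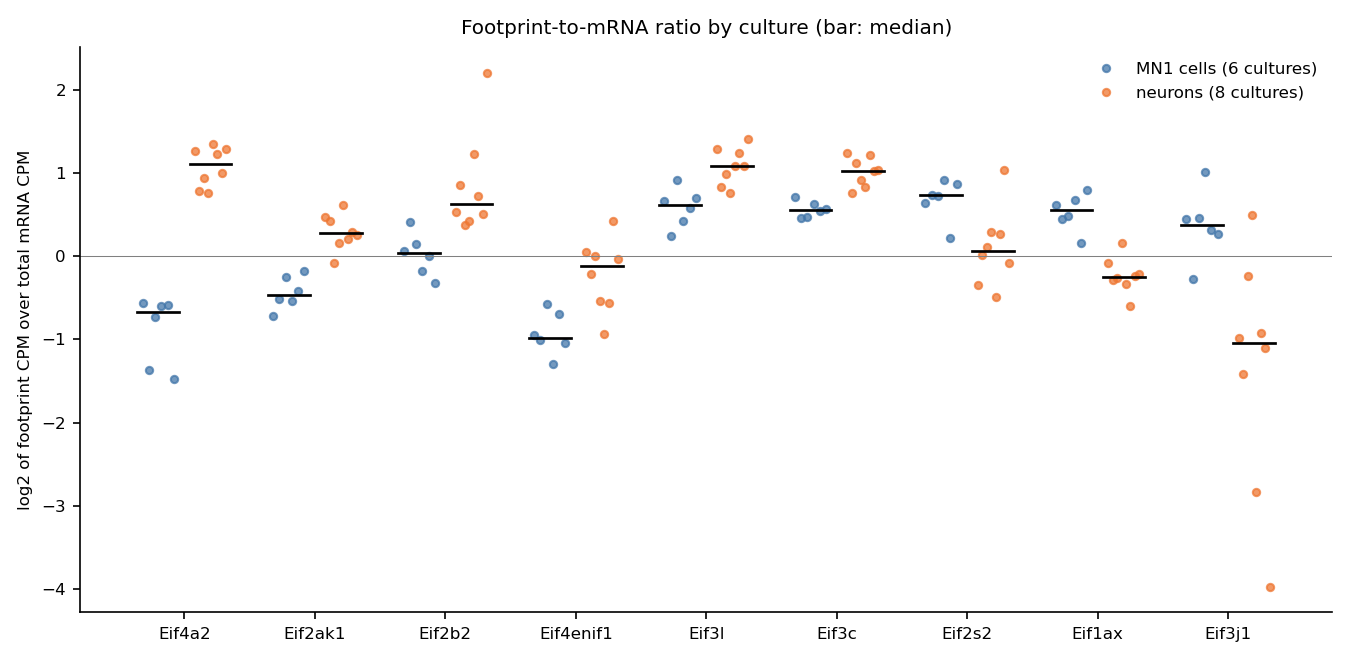
Log2 ratio of footprint CPM to total mRNA CPM in each of 6 MN1 cultures and 8 neuron cultures for the 9 members whose ratio differed between the cells, with the median as a bar. For Eif4a2 the MN1 cultures lie between -1.48 and -0.561 and the neuron cultures between 0.758 and 1.35, whereas for Eif3j1 the ranges overlap.

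Eif4a2 had the largest difference. In MN1 cells its log2 ratio was -0.727 and -0.602 in the GFP cultures, -0.584 and -1.48 in the hTDP-43 cultures and -0.561 and -1.36 in the A315T cultures. The values of -1.48 and -1.36 come from replicate 2, with footprint libraries of 332370 and 521904 reads. In neurons the ratio was 0.758 and 1.35 in WT, 1.22, 0.994 and 1.29 with hTDP-43 and 1.26, 0.787 and 0.936 with A315T. The groups did not overlap, and Eif4a2 was lower in footprints than in total mRNA in MN1 cells (-0.60, SE 0.20, adjusted p = 0.0154) and higher in neurons (1.05, SE 0.10, adjusted p = 4.17e-08). The difference was 1.795 (SE 0.23, adjusted p = 6.25e-06) and kept its call under all 21 alternatives, from 1.58 to 1.89 (1.66 without WT 3 and hTDP-43 3). Counts per gene do not separate transcript forms, so a change in which Eif4a2 transcripts are made was not tested.

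Of the other higher ratios, Eif2ak1 (0.73, SE 0.16, adjusted p = 0.00398) was called under 20 of 21 alternatives, Eif2b2, an eIF2B subunit gene (0.67, SE 0.18, adjusted p = 0.0178), under 15 and Eif4enif1 (0.62, SE 0.17, adjusted p = 0.0172) under 14. Eif3l (0.47, SE 0.14, adjusted p = 0.0322) was called under 7 and Eif3c (0.43, SE 0.14, adjusted p = 0.0445) under 3. Without neuron hTDP-43 replicate 1 Eif3l was at 0.25 (adjusted p = 0.402) and Eif3c at 0.20 (adjusted p = 0.502), and with RLE size factors they were at 0.28 and 0.23. Without neuron WT replicate 2 Eif3c was at 0.26. Of the lower ones, Eif1ax, an eIF1A gene (-0.78, SE 0.17, adjusted p = 0.00301), was called under all 21. Its ratio ran from 0.155 to 0.792 in MN1 cultures and from -0.596 to 0.163 in neuron cultures, which overlap by 1 culture, WT 2. Eif2s2, the eIF2 beta subunit gene (-0.67, SE 0.19, adjusted p = 0.0219), was called under 18. Eif3j1 (-1.47, SE 0.42, adjusted p = 0.0214) was called under 19, with 4 to 20 reads in MN1 footprint libraries and 0 to 16 in neuron footprint libraries. The coding share of the exons was 8.20% for Eif1ax, 14.7% for Eif2s2 and 13.4% for Eif3j1. For the members with a higher ratio it ran from 23.1% (Eif4a2) to 89.4% (Eif3l). Whether transcript forms of these genes differ between the cells was not tested.

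Whether the human TDP-43 forms changed the factors was tested within each cell type, for each pair of groups, in footprints, in total mRNA and in their ratio. No member passed the edgeR test in any of the 18 comparisons, and none did with DESeq2. Between 0 and 3 of the 56 to 63 members tested had an unadjusted p under 0.05 in a comparison. The background was as low. In MN1 footprints 0.0115% of genes passed for A315T against GFP and 0% for the other pairs, in MN1 total mRNA 0.00965% for A315T against GFP, 0.01% for hTDP-43 against GFP and 0% for A315T against hTDP-43, and 0% passed in each of the 6 comparisons of ratios and each of the 6 of neuron footprints or total mRNA. These counts come from 2 or 3 cultures a group, and an adjusted p that misses the threshold does not show that values did not differ.

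**Figure D5:**
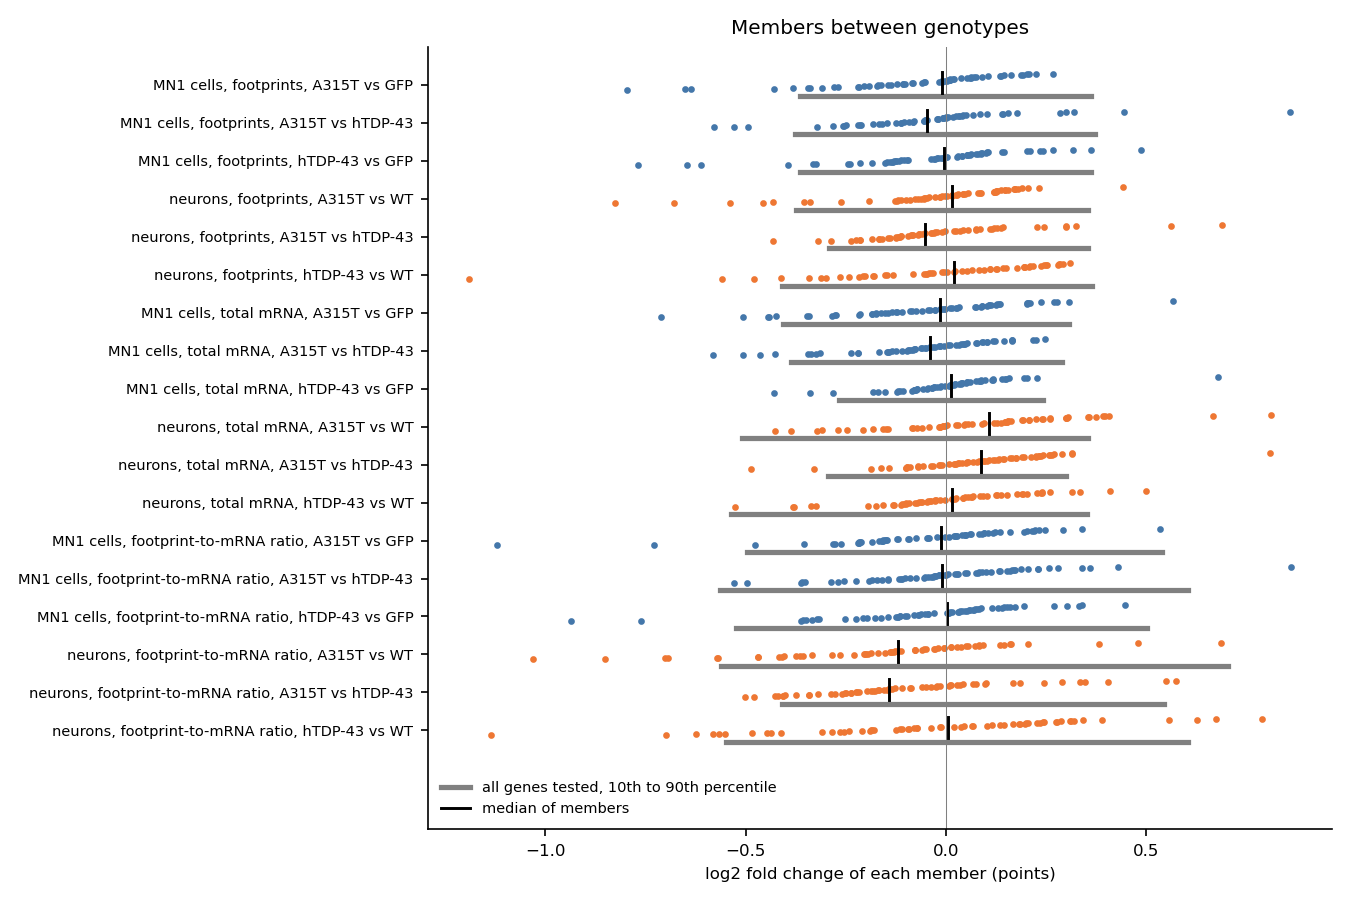
Log2 fold change of each member tested (points) in the 18 comparisons between genotypes, MN1 cells in blue and neurons in orange, with the median of the members (black) and the range from the 10th to the 90th percentile of all genes tested (grey). Members' medians lie between -0.14 and 0.11, and no point passed the test.

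No median of all genes tested in these comparisons lay more than 0.0317 from 0. The members' medians in MN1 footprints were -0.01 for A315T against GFP, -0.05 for A315T against hTDP-43 and -0.01 for hTDP-43 against GFP, and in neuron footprints 0.02 for A315T against WT, -0.05 for A315T against hTDP-43 and 0.02 for hTDP-43 against WT. In neuron total mRNA they were 0.11 for A315T against WT, beside 0.00214 for all genes, and 0.09 for A315T against hTDP-43, beside -0.00483, and both use the same A315T cultures. WT 3 and hTDP-43 3 belong to the compared groups, and their high Lars2 share stood beside these medians. In neurons the ratio of A315T to WT had a member median of -0.12, beside 0.00315 for all genes, and that of A315T to hTDP-43 one of -0.14, beside 0.0317. Without WT 2, which leaves WT 3 as the only control and assumes that it varies like the A315T cultures, 9 members passed for A315T against WT in neuron total mRNA, beside 12.5% of all genes.

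Cultures with the same replicate number share a date within a cell type, so each comparison was repeated with a replicate block, or for the ratio a block for culture. In MN1 total mRNA, A315T against GFP, this gave 3 members of 63, all lower with A315T, beside 2.73% of all genes called in either direction and 1.68% called lower. Eif3a, the largest eIF3 subunit gene, had 260 and 169 CPM with A315T, 376 and 181 in the GFP cultures and 391 and 161 in the hTDP-43 cultures, each in replicates 1 and 2, so that replicate 1 lay above replicate 2 in each group and the groups overlapped. Its blocked log2 fold change was -0.42 (SE 0.10, adjusted p = 0.0242). Eif3e had 138 and 129 CPM with A315T and 178 and 168 with GFP, with a change of -0.45 (SE 0.10, adjusted p = 0.0126), and Eif5 had 93.6 and 87.2 CPM against 119 and 112, with a change of -0.43 (SE 0.12, adjusted p = 0.0383). For Eif3e and Eif5 the A315T and GFP cultures did not overlap. Without the block Eif3e was the member with the smallest p (adjusted p = 0.849). Without GFP replicate 2, 2 members passed in this comparison, beside 2.43% of all genes, and the change of Eif3a turned to 0.22 without GFP replicate 1. For A315T against hTDP-43 in MN1 total mRNA, 2 members passed without hTDP-43 replicate 2, beside 3.18% of all genes.

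The members with the smallest p in the other comparisons differed from one to the next. In MN1 cells they were Eif4ebp2 for A315T against GFP in footprints (-0.80, SE 0.32, adjusted p = 1) and in the ratio (-1.12, SE 0.32, adjusted p = 1), Eif2b3 for A315T against hTDP-43 in footprints (0.86, SE 0.33) and the ratio (0.86, SE 0.41), Eef1e1 (0.49, SE 0.21) and Eif2d (-0.94, SE 0.47) for hTDP-43 against GFP in footprints and the ratio, and in total mRNA Eif2s2 (-0.51, SE 0.19) and Eef1akmt2 (0.68, SE 0.49). In neurons they were Eif5 (-0.46, SE 0.20), Eif3a (-0.32, SE 0.15) and Eif2s3y (-1.19, SE 0.67) in footprints, Eif1a (0.67, SE 0.32), Eif2ak3 (-0.49, SE 0.23) and Eif4ebp2 (-0.53, SE 0.32) in total mRNA and Eif4enif1 (0.69, SE 0.30), Eif2s2 (-0.48, SE 0.33) and Eif2ak4 (0.79, SE 0.52) in the ratio, each time in the order A315T against WT, then against hTDP-43, and last hTDP-43 against WT. Their adjusted p all lay at or above 0.915. Eif4ebp2 log2 ratios in MN1 cells were -0.750 and -0.920 in the GFP cultures, -1.36 and -2.31 in the hTDP-43 cultures and -1.80 and -2.32 in the A315T cultures, so the GFP cultures lay above the others, which was not past the test.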

How the data were processed

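Ribosome footprints and poly(A)-selected, fragmented total mRNA were sequenced from each culture. Per the study's methods the authors trimmed adapters (cutadapt 1.8.1), removed reads on non-coding RNA (Bowtie2), aligned the rest to GRCm38.p4 (TopHat2 with Bowtie2) and counted reads over exons (featureCounts 1.4.4). The deposited values are raw counts per gene, with no strand option in the file headers, so overlapping antisense genes cannot be told apart. All 28 libraries were used.

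Genes were filtered with filterByExpr (minimum count 10, minimum total 15) and tested with edgeR 4.0.16 (R 4.3.3), TMM and quasi-likelihood, over all genes with Benjamini-Hochberg adjustment (threshold 0.05). Library contrasts carried genotype as a covariate, and cell-type contrasts the TDP-43 form. The reported library contrasts and ratio tests did not pair the footprint and total mRNA libraries of a culture. With a block for culture, 6127 genes were called for footprints against total mRNA in MN1 cells, against 5775 as reported. In neurons these were 6557 against 6137, and for the ratio between the cells 1746 against 1216. CPM and RPKM were TMM-scaled over all libraries, and ratios per culture had 2 counts added. Alternatives were RLE size factors, DESeq2 1.42.0, no filter, a block, each culture left out, Lars2, Yipf1, Gm37194 and Gm14236 left out, protein-coding genes only, and WT 3 and hTDP-43 3 left out. The block was by replicate number for footprints or total mRNA alone, and by culture for library contrasts and ratios. Between the cell types the same replicate number stands for different dates. Scripts were tested on simulated data. Titles give 1 date for each replicate number within a cell type (1 MN1 GFP footprint title differs in the year), which pairs the samples. Deviations of same-numbered MN1 libraries correlated at 0.17 to 0.43, those of neuron libraries at -0.18 to 0.54. WT has only replicates 2 and 3. No library pair was identical. Replicates are separate cultures, and counting errors ignore duplicate PCR reads.

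The members and lists were chosen with earlier results of these data known. Named genes were the paralogue pairs, the 8 largest called changes in each direction between cell types or libraries, every member past the threshold between genotypes with or without the block, the smallest p of each genotype comparison, and the 5 highest and 5 lowest levels.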

Additional observations from a re-analysis of the deposited data

Results flagged for a closer look

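The difference of the footprint-to-mRNA ratio between neurons and MN1 cells passed the test for 9 of 64 members, 6 of them higher in neurons and 3 lower, beside 7.37% and 3.12% of the 11587 genes tested and a median difference of 0.16 over all genes. The log2 differences, neurons minus MN1 cells, were 1.795 for Eif4a2, 0.73 for Eif2ak1, 0.67 for Eif2b2, 0.62 for Eif4enif1, 0.47 for Eif3l, 0.43 for Eif3c, -0.67 for Eif2s2, -0.78 for Eif1ax and -1.47 for Eif3j1. Eif4a2 and Eif1ax kept their calls under all 21 alternatives tried, and the other 7 lost theirs under at least 1. Cycloheximide before lysis, culture and dates differ between the cells and cannot be told apart. No group had enough cultures for a search for single outlying samples.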

How the results depend on the processing

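Counts of members that were higher or lower between cell types, or in footprints against total mRNA, stayed within 1.5 times the reported ones under every alternative run. The number with a higher ratio in neurons, 6 as reported, was 2 with RLE size factors, 2 with DESeq2, 3 without the low-count filter and 1 to 6 when 1 culture was left out (2 without MN1 GFP replicate 2, 1 without neuron hTDP-43 replicate 1, 3 without neuron A315T replicate 1, 2 without neuron WT replicate 2), and calls over all genes moved as well, from 854 higher as reported to 299, 416 and 690 under the first 3 of these settings and to 624, 192, 590 and 308 without those 4 cultures in turn. The number of members with a lower ratio, 3 as reported, was 1 to 3 (1 without MN1 GFP replicate 2). Leaving out 1 culture gave 0 to 2 members in MN1 total mRNA for A315T against GFP and for A315T against hTDP-43, 0 to 9 in neuron total mRNA for A315T against WT and 0 in the other 15 genotype comparisons, and where it left 1 sample in a group, that sample was assumed to vary like the other group. The block gave 3 members in MN1 total mRNA for A315T against GFP and changed no other count of calls by over 1.5 times. Beside Eif3b and Eef1d, the block for culture added the call of Eif4h (0.55) for the ratio. For footprints against total mRNA it added Eif2ak2 (0.44) and Eif4b (-0.21) in MN1 cells and Eif1ax (-0.25) and Eif5a (0.34) in neurons. In neurons it removed the call of Eif2ak1 (0.26). Between the cells, the block for replicate number added the call of Eef1e1 (-0.44) in footprints. It removed those of Eif1ax (-0.13) and Eif4g1 (-0.15) in footprints and of Eif4e2 (-0.23) in total mRNA. Same-numbered MN1 and neuron cultures share no date, so this block joins unrelated cultures and is no test of these calls. No other call between cell types or libraries changed with a block. Over the alternatives the change of Eif3a in MN1 total mRNA, A315T against GFP, ran from -0.91 to 0.22, the latter without MN1 GFP replicate 1. The cause of these changes was not tested. Of the single calls between cell types or libraries, 1040 fits that left out 1 culture kept the side of the threshold and 81 lost it, as did 661 and 42 of the other fits, and none reversed. Footprint libraries of as few as 166064 reads and groups of 2 or 3 limit what could be called between genotypes.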
